A study of Homo sapiens with 12 samples.

Results

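Catalogued circular RNAs were taken here as the rows of the deposited circular RNA table whose names begin with hsa_circ_, the form used by a public catalogue of human circular RNAs. There were 779 of them among 943 rows (82.6%), and the other 164 rows carried names given by the authors. The study compared cells labelled HEL, a human erythroleukaemia line, after 3 days with 40 µg/ml DMAG, a glucoside of a dimethylated ellagic acid from the herb Sanguisorba, with cells labelled as controls, for which no dose, day or vehicle is recorded. Each group had 3 RNA-Seq libraries made from RNA depleted of ribosomal RNA. The labels name no separate cultures, so the tests measure the spread between these libraries, which may be technical.

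A circular RNA forms when the spliceosome joins the end of an exon to the start of the same or an upstream exon, a reaction called backsplicing. The closed ring has neither a cap nor a poly(A) tail, resists exonucleases and often outlives the linear mRNA of its gene. Only reads across the backsplice junction identify a circle, so counts are low even in deep libraries. Circular RNAs are well known in blood cells and platelets. The files give neither positions, sequences nor host genes for the circles, so these are described by catalogue name.

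The cells were first compared with their label. Of 15 genes that mark the erythroid and megakaryocytic character of HEL, 10 stayed below 1 FPKM in every library. GATA1, the transcription factor of both lineages, reached at most 0.142 FPKM. The erythropoietin receptor EPOR and the kinase JAK2 were at 3.71 ± 0.270 and 7.52 ± 0.496 FPKM in controls (SD, n = 3). All 5 granulocyte precursor genes were present, with a summed level of 2041 to 2211 FPKM in controls and 1057 to 1268 FPKM with DMAG. MPO and PRTN3 made up most of this sum, while AZU1 was higher with DMAG, at 79.4 ± 1.16 FPKM in controls and 100.2 ± 7.44 FPKM with DMAG (limma adjusted p = 0.0043). DMAG replicate 3 stood apart, with the alpha globin mRNAs HBA1 and HBA2 at 375 and 200 FPKM. Some results, among them those of the called circles, are therefore also given without it. For the others, only a range over fits without 1 library is given, or no value without it. The part of these markers in the results on circles was not tested.

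Circular RNA counts were few. The 3 control libraries held 4716 to 5296 counts and the 3 DMAG libraries 4825 to 5701, so 1 count was worth 175 to 212 CPM (counts per 1000000 circular RNA counts of a library). Catalogued circles took 26746 of the 30691 counts in all. No count of 1 appeared in the table, where the smallest count above 0 was 2, and no row summed to fewer than 5 counts over the 6 libraries. A listed 0 may thus stand for 0 or 1 read, though the read minimum of the caller is not given. The word "detected" below means a count of at least 2.

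Abundance was spread over many circles. The median catalogued circle had a sum of 19 counts over the 6 libraries, with quartiles at 12 and 34, and the highest had 518. The 10 most abundant took 15.1% of the catalogued counts and the 50 most abundant 35.2%, while 108 circles were needed to reach 50%. There were 36 circles at a sum of 100 or more and 241 (30.9%) at a sum of 30 or more, and the latter held 69.3% of the catalogued counts. Around the sum of 30, the level below which no change is described, 10 circles lay at 29 and 13 at 30.

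Low catalogue numbers went with high counts, a split chosen after the values were seen. The 239 circles numbered below 2000 had a median sum of 31 counts and held 54.0% of the catalogued counts. The 540 circles with higher numbers had a median of 16. All 10 of the most abundant circles had a number below 2000. How the catalogue assigned its numbers is not given in the files, and no test was made.

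The circle with the highest mean level was hsa_circ_0001772. It had 89, 80 and 107 counts in control replicates 1, 2 and 3 and 82, 82 and 78 in the DMAG libraries, or 18264 ± 1712 and 15554 ± 1326 CPM. Its control and DMAG counts overlapped, with control replicate 2 between the DMAG values. Next came hsa_circ_0001017, with 87, 76 and 79 counts in controls and 86, 93 and 71 with DMAG, and mean levels of 16087 and 16091 CPM. For hsa_circ_0001481 the counts were 69, 48 and 88 in controls and 86, 72 and 84 with DMAG. Here control replicate 2 was low and the other controls lay in or near the DMAG range.

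hsa_circ_0000567, known in the literature as a circle of the histidine methyltransferase gene SETD3, had 79, 71 and 76 counts in controls and 61, 56 and 78 with DMAG. DMAG replicate 3 lay among the controls, and the other DMAG libraries lay below them. hsa_circ_0001451 had 58, 80 and 66 counts in controls and 74, 65 and 77 with DMAG, and hsa_circ_0001776 had 73, 66 and 51 and then 68, 63 and 76. The groups of both overlapped widely. hsa_circ_0000835 had 62, 77 and 63 counts in controls and 48, 56 and 61 with DMAG, and its TMM-scaled log2 change was -0.31 (95% interval -0.73 to 0.11).

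hsa_circ_0001900 had 71, 67 and 55 counts in controls and 65, 59 and 48 with DMAG. hsa_circ_0001944, known as a circle of the X-linked lncRNA gene FIRRE, had 70, 55 and 55 counts and then 63, 54 and 64. The last of the 10, hsa_circ_0000711, known as a circle of NFATC3, a calcium-regulated transcription factor, had 35, 35 and 50 counts in controls and 54, 33 and 36 with DMAG. Over these 10 circles the log2 change ran from -0.31 to 0.22, with standard errors between 0.15 and 0.22. None passed the test (edgeR quasi-likelihood, smallest adjusted p = 0.55). Their 95% intervals lay between -0.73 and 0.65, so a 2-fold change, which is 1 on the log2 scale, lay outside every one of the 10.

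**Figure D1:**
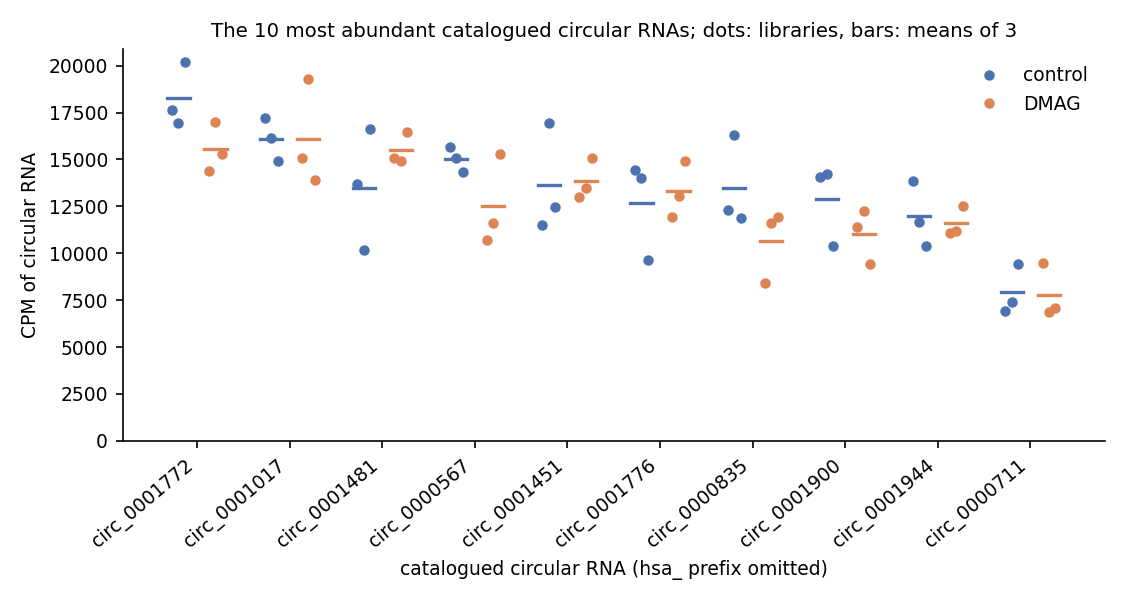
Levels of the 10 most abundant catalogued circles, in CPM of circular RNA (y axis from 0), for each circle (x axis). Dots are the 3 control and 3 DMAG libraries and bars their means; the dots of the groups intermingle or lie side by side, and no circle passed the test.

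Detection across libraries was described by abundance. Of the 779 catalogued circles, 259 (33.2%) were detected in all 6 libraries, 155 in 5, 142 in 4, 99 in 3, 69 in 2 and 55 in a single library. Since the smallest count listed is 2, detection in all 6 needs a sum of at least 12, which the 126 circles with a sum of 5 to 9 counts could not reach. The share in all 6 was 16.8% of the 358 circles at 12 to 29 counts, 80.0% of the 205 at 30 to 99 and 35 of the 36 at 100 or more.

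**Figure D2:**
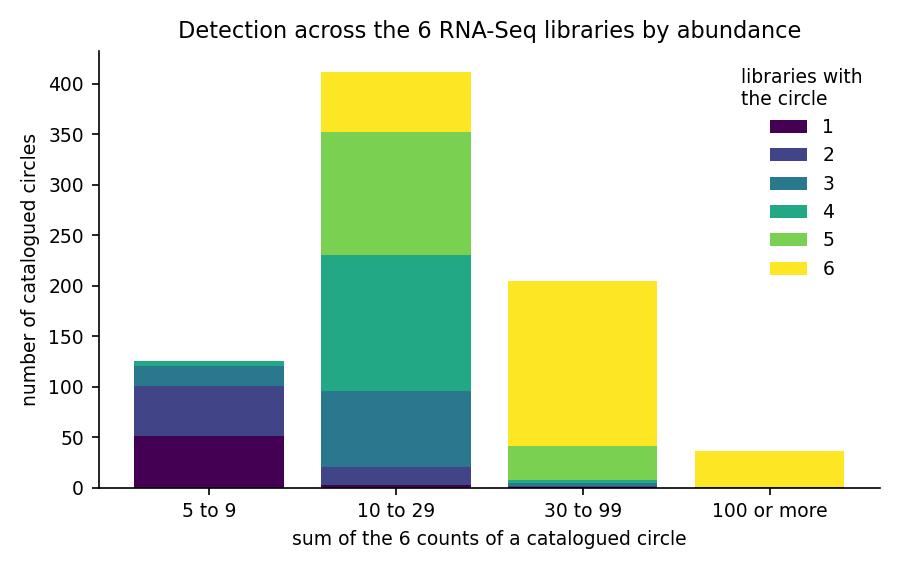
Number of catalogued circles (y axis) in 4 ranges of the sum of the 6 counts (x axis), coloured by the number of libraries in which a circle was detected. The colours shift from 1 to 3 libraries on the left to 6 libraries on the right, where 35 of 36 circles were in every library.

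A few well counted circles were on in some libraries and off in others. Of the 241 circles at a sum of 30 or more, 199 were detected in all 6 libraries, 33 in 5, 3 in 4 and 6 in 3 or fewer. The exception above 100 counts was hsa_circ_0001726, with 0, 35 and 26 counts in controls and 52, 0 and 0 with DMAG. hsa_circ_0000268 had 36 counts in control replicate 1 and 0 in the other 5 libraries. Both were chosen after their values were seen. Among the 6, the libraries with counts belonged to both groups for 4 circles, and for 1 they were all the controls and no DMAG library.

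The number of circles detected hardly differed between the groups. Controls had 566, 543 and 582 catalogued circles and DMAG libraries 573, 547 and 576, a mean of 564 ± 19.6 against 565 ± 15.9 (exact permutation test, two-sided p = 0.90, adjusted p = 0.90 over 3 measures, where 0.10 is the smallest p that 3 against 3 libraries allow). The direction of this difference depended on depth: thinned to the counts of the shallowest library, the expected number was 552 in controls and 549 with DMAG. The 10 most abundant circles of each library took 15.6% ± 0.627 of its catalogued counts in controls and 15.1% ± 0.882 with DMAG (exact permutation test, p = 0.50, adjusted p = 0.75). In all, 660 circles were detected in both groups, 62 (7.96%) in controls alone and 57 (7.32%) with DMAG alone, beside 8.38% and 9.33% of all 943 rows. Those in 1 group alone were mostly near the limit of detection, with median sums of 7 and 8 counts. There were 15 circles (1.93%) detected in all 3 controls and no DMAG library, and 18 (2.31%) with the reverse pattern, beside 2.23% and 2.76% of all rows.

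Catalogued circles took a slightly smaller share of the counts with DMAG. The share was 87.5%, 88.0% and 87.6% in the controls and 86.8%, 86.3% and 86.7% with DMAG, where the exact (Clopper-Pearson) 95% binomial interval of a single library spanned, for control replicate 1, 86.6% to 88.4%. The groups did not overlap, and the means differed by 1.09 percentage points (87.7% ± 0.244 against 86.6% ± 0.304). This gave the smallest p that the design allows (exact permutation test, two-sided p = 0.10, or 0.30 when adjusted over the 3 measures of this kind). Among rows at a sum of 30 or more alone, the shares were 89.7% ± 0.276 and 89.4% ± 0.0934 and overlapped.

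Compared with the 164 other circles, catalogued ones were detected more often in each library. On average 72.5% ± 2.06 of catalogued rows and 57.9% ± 4.50 of other rows were detected (SD over 6 libraries), a difference of 9.85 to 19.1 percentage points in the same direction in 6 of 6 libraries. The mean count of a detected row was also higher, 7.89 ± 0.389 against 6.92 ± 0.289, again in 6 of 6. Both differences had the smallest p this test allows (exact sign-flip permutation over libraries, p = 0.031, adjusted p = 0.047 over 3 measures). All 6 libraries scored the same rows, so this p measures agreement between libraries and not the spread over circles. Over the 6 libraries together, the median sum was 19 counts for catalogued rows and 14 for the others. The median count of a detected row was 5 in every library for catalogued circles and 4 or 5 for the others, which did not pass (exact permutation, p = 0.25). The other circles were not uniformly scarce, since novel_circ_0003903 had a sum of 518 counts, equal to the highest catalogued one.

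The libraries resembled each other only in part at these depths. Across the 241 circles at a sum of 30 or more, Spearman's rho was 0.61 to 0.66 between libraries of a group and 0.46 to 0.56 between groups. Across all 779 it was 0.49 to 0.56 and 0.40 to 0.48. These are descriptions across circles of the same libraries, and circles are not independent replicates. Of the catalogued circles detected in either of a pair of libraries, 65.8% to 69.6% were shared within a group and 61.0% to 64.8% between groups.

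The change with DMAG was tested on 266 rows at a sum of 30 or more, 241 of them catalogued. Of the catalogued circles, 1 was higher and 1 lower with DMAG at an adjusted p under 0.05 (edgeR quasi-likelihood test with Benjamini-Hochberg adjustment over all 266 rows). Over all rows tested, 0.752% were called higher and 0.376% lower, 1.13% in all. Before adjustment, 15 catalogued circles were higher and 15 lower at a p under 0.05, 12.4% of the 241, beside 13.2% of all 266 rows. The median log2 change of the 241 was -0.01, with quartiles at -0.39 and 0.44, beside a median of 0.01 over all rows tested. In 18 catalogued circles every DMAG library had a higher CPM than every control, and in 24 a lower one, while over all rows 7.89% were higher and 10.5% lower in this sense.

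**Figure D3:**
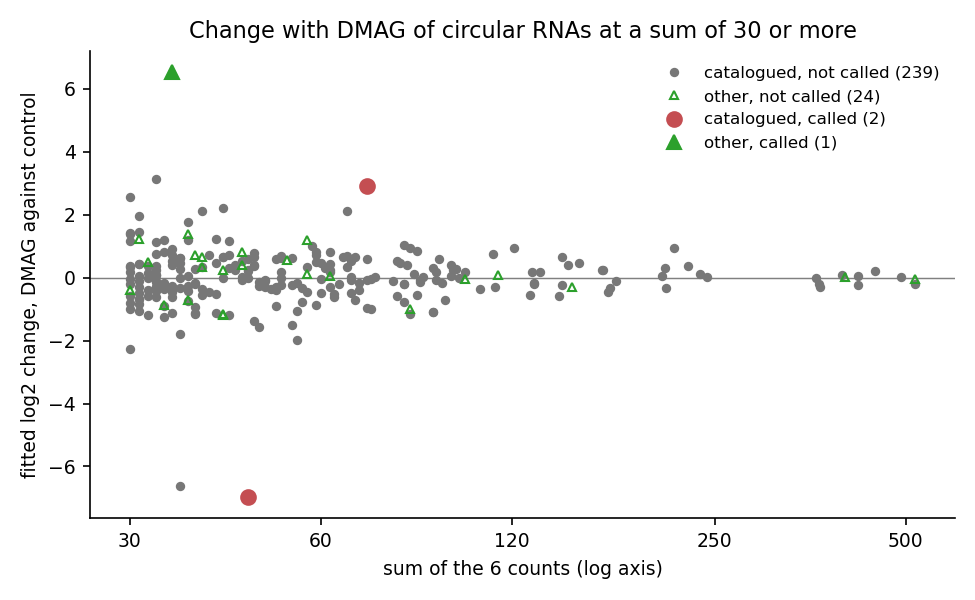
Fitted log2 change with DMAG (y axis) against the sum of the 6 counts (x axis, log scale) for the 266 rows tested. The spread narrows from left to right; the 2 catalogued circles called are large red dots, and the grey dot at the bottom left is hsa_circ_0000268, counted in control replicate 1 alone.

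The fall was that of hsa_circ_0087357. It had 13, 12 and 21 counts in the controls (3028 ± 812 CPM) and was listed at 0 in all 3 DMAG libraries (edgeR quasi-likelihood, adjusted p = 0.011). The groups did not overlap. A floor of 3 counts over the DMAG group, or 1 unlisted read in each library, was set against the 46 control counts. Scaled by the group totals of circular counts, the circle was then 15.9-fold lower with DMAG. This ratio takes the 46 counts as exact and carries neither their counting error nor the spread between controls. It also assumes that no listed 0 hid more than 1 read, which was not tested. The call was kept without DMAG replicate 3 (adjusted p = 0.025) and lost without control replicate 3 (adjusted p = 0.056). The call was also lost without a filter on low counts (edgeR adjusted p = 0.066) and with the replicate number as a block (edgeR adjusted p = 0.28). Over the alternatives tried, the adjusted p ran from 2.2e-04 to 0.28. As given above, it was 1 of 6 well counted circles detected in 3 or fewer libraries, and the other 5 were on and off across the groups or in a single control.

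The rise was that of hsa_circ_0067985. It had 3, 0 and 5 counts in the controls and 26, 24 and 13 with DMAG, or 513 ± 477 and 4027 ± 1298 CPM. Every DMAG library lay above every control, with a log2 change of 2.90 (SE 0.57, 95% interval 1.65 to 4.15, edgeR quasi-likelihood adjusted p = 0.031). Without DMAG replicate 3 the log2 change was 3.13 (adjusted p = 0.039). The call was lost when any 1 of the other 5 libraries was left out (adjusted p = 0.16, 0.075 and 0.073 without control replicates 1, 2 and 3, and adjusted p = 0.25 and 0.12 without DMAG replicates 1 and 2), and over all alternatives the adjusted p ran from 0.0017 to 0.28. The only other row called in the table was not catalogued: novel_circ_0004837 was listed at 0 in the controls and had 16, 9 and 10 counts with DMAG (adjusted p = 0.019).

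The next smallest p of each direction belonged to circles that did not pass. hsa_circ_0001258 had 5, 7 and 0 counts in controls and 23, 18 and 13 with DMAG (log2 change 2.11, SE 0.57, edgeR quasi-likelihood adjusted p = 0.22). With each listed 0 set to 1, it passed (edgeR adjusted p = 0.028, against 0.065 to 0.53 over the other alternatives). How many reads a listed 0 can hide is not known, so this pass rests on an assumed value. hsa_circ_0000398 had 10, 11 and 13 counts in controls and 5, 4 and 4 with DMAG (log2 change -1.38, SE 0.42, edgeR adjusted p = 0.22). In both, the groups were apart in all 6 libraries.

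3 further circles were picked after their values were seen. hsa_circ_0000566, the most abundant with a p under 0.05 before adjustment, had 16, 23 and 34 counts in controls and 50, 40 and 53 with DMAG, or 4822 ± 1627 and 9149 ± 1098 CPM. Its log2 change was 0.95 (95% interval 0.37 to 1.52) and did not pass (edgeR adjusted p = 0.22). hsa_circ_0003102 had 23, 23 and 15 counts in controls and 14, 9 and 6 with DMAG, and hsa_circ_0062642 had exactly the same 6 counts. The log2 change of either was -1.10 (edgeR adjusted p = 0.22). They were the only pair at a sum of 30 or more to share all 6 counts, and whether they are separate circles or 1 set of reads listed under 2 names is uncertain. The other 65 catalogued rows with shared counts had sums of at most 10.

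**Figure D4:**
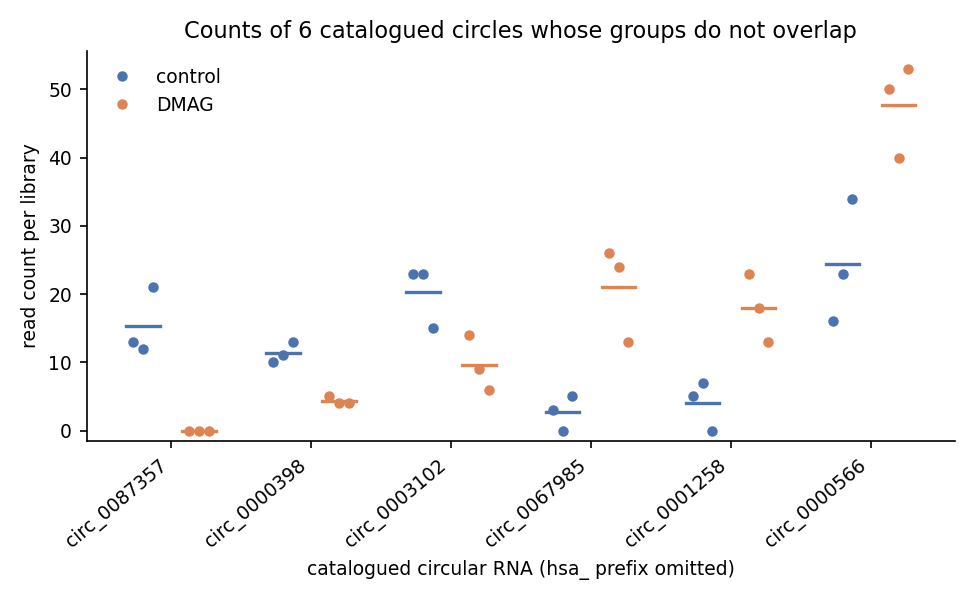
Read counts per library (y axis) of 6 catalogued circles whose groups do not overlap (x axis), with dots for the 3 control and 3 DMAG libraries and bars for their means. hsa_circ_0087357 is at 0 in every DMAG library, and hsa_circ_0067985 goes from 0 to 5 counts in controls to 13 to 26 with DMAG; the other 4 did not pass the test.

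How small a change could be seen depended on the counts. For the 144 catalogued circles with a sum of 30 to 59, the median standard error of the log2 change was 0.60, and the 95% interval lay within 1 on either side of 0 for 1 of them. For the 65 with 60 to 119 counts the median standard error was 0.36, and 18 intervals lay within these limits. For the 32 with 120 counts or more it was 0.25, and 25 lay within. Among these 32 the largest change in either direction was that of hsa_circ_0000566. For most circles tested below 120 counts, the interval left a 2-fold change possible in at least 1 direction. Fitted changes near 2-fold could miss the adjusted threshold at 60 counts or more too. Neither hsa_circ_0000566 (sum of 216) nor hsa_circ_0003102 (sum of 90) was called. The 538 circles below a sum of 30 were not tested.

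Circles known from the literature were looked up by catalogue name. Of 19 such names, 5 matched a row and the other 14 gave no value here. The gene of each is given from general knowledge, since the files do not pair circles with genes. For SETD3, whose circle is described above, the mRNA was at 35.4 ± 1.36 FPKM in controls and 36.1 ± 0.179 FPKM with DMAG (limma adjusted p = 0.58), beside a log2 change of its circle of -0.23 (95% interval -0.61 to 0.15). The NFATC3 mRNA was 1.12-fold higher with DMAG, 31.5 ± 0.397 against 35.3 ± 0.671 FPKM (limma adjusted p = 0.0087), and its circle had a log2 change of 0.01 (95% interval -0.48 to 0.50). The difference between circle and mRNA was not tested.

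hsa_circ_0001727, known as a circle of the zinc finger gene ZKSCAN1, had 30, 32 and 28 counts in controls and 30, 24 and 31 with DMAG (log2 change -0.11). The ZKSCAN1 mRNA was at 18.0, 5.90 and 17.8 FPKM in controls and 22.6 ± 0.570 FPKM with DMAG, with control replicate 2 low (limma adjusted p = 0.13). hsa_circ_0000437, known as a circle of the actin-binding protein gene CORO1C, had 10, 6 and 5 counts in controls and 5, 13 and 7 with DMAG. The CORO1C mRNA was at 41.3 ± 1.48 FPKM in controls and at 35.8, 38.0 and 15.7 FPKM with DMAG (limma adjusted p = 0.20). Values of the FIRRE transcript were not used here.

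The mRNAs of proteins that form, export or degrade circular RNAs were then examined, from a list of 45 genes of which 41 were tested. With DMAG 5 rose and 13 fell (limma, adjusted p under 0.05), while 23 did not pass. Over all 10394 genes tested 22.4% rose and 26.1% fell, 48.6% in all, and the median log2 change of the 41 genes was -0.02 beside -0.01 over all genes. In bulk samples, a lower level per cell and fewer cells with the mRNA cannot be told apart.

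Among 22 regulators of backsplicing, 1 rose and 6 fell. DHX9, a helicase that unwinds paired repeats around exons and so limits circle formation, was at 109, 112 and 112 FPKM in controls and 69.4, 71.1 and 71.3 with DMAG, 1.57-fold lower (limma adjusted p = 4.8e-05). PRPF8, a core protein of the spliceosome, fell from 87.3 ± 1.68 to 66.7 ± 0.137 FPKM, and DBR1, which opens intron lariats, from 13.5 ± 0.326 to 9.58 ± 0.373 FPKM. The splicing factor SLU7 rose from 14.2 ± 0.338 to 17.1 ± 1.95 FPKM (limma adjusted p = 0.049), a call lost without any 1 of the other libraries than DMAG replicate 3 and without a filter on low values (adjusted p = 0.072 to 0.14). QKI, which binds introns and promotes backsplicing, was at 33.7, 32.5 and 34.8 FPKM in controls and 31.8, 13.1 and 13.0 with DMAG. DMAG replicate 1 lay with the controls, and the difference did not pass (limma adjusted p = 0.065, or 2.1e-04 without that library, and at most 0.17 over the alternatives). ADAR, which edits paired RNA and limits backsplicing, was at 52.1 ± 9.40 FPKM in controls and 51.5 ± 9.82 FPKM with DMAG and did not pass (limma adjusted p = 0.94).

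Of 7 genes of export and RNA methylation, 2 rose and 2 fell. NCBP3, a cap-binding protein with a role in export, rose from 6.22 ± 0.589 to 9.31 ± 0.426 FPKM (limma adjusted p = 0.0020), and YTHDC1, a nuclear reader of methylated RNA, rose 1.23-fold. The YTHDC1 call was lost without control replicate 1 or 2 or DMAG replicate 2 (adjusted p = 0.054, 0.055 and 0.055). Of 12 genes of decay and turnover, 2 rose and 5 fell. POP1, a subunit of RNase P and RNase MRP, fell 1.86-fold, from 13.8 ± 0.346 to 7.44 ± 0.482 FPKM, and the stress granule protein G3BP1 fell 1.51-fold. TNRC6B, which works with Argonaute proteins, rose 1.28-fold, and UPF1, the helicase of nonsense-mediated decay, rose 1.10-fold. The UPF1 call was lost without control replicate 1 or 3 or DMAG replicate 2 or 3 (adjusted p = 0.052, 0.069, 0.066 and 0.066).

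**Figure D5:**
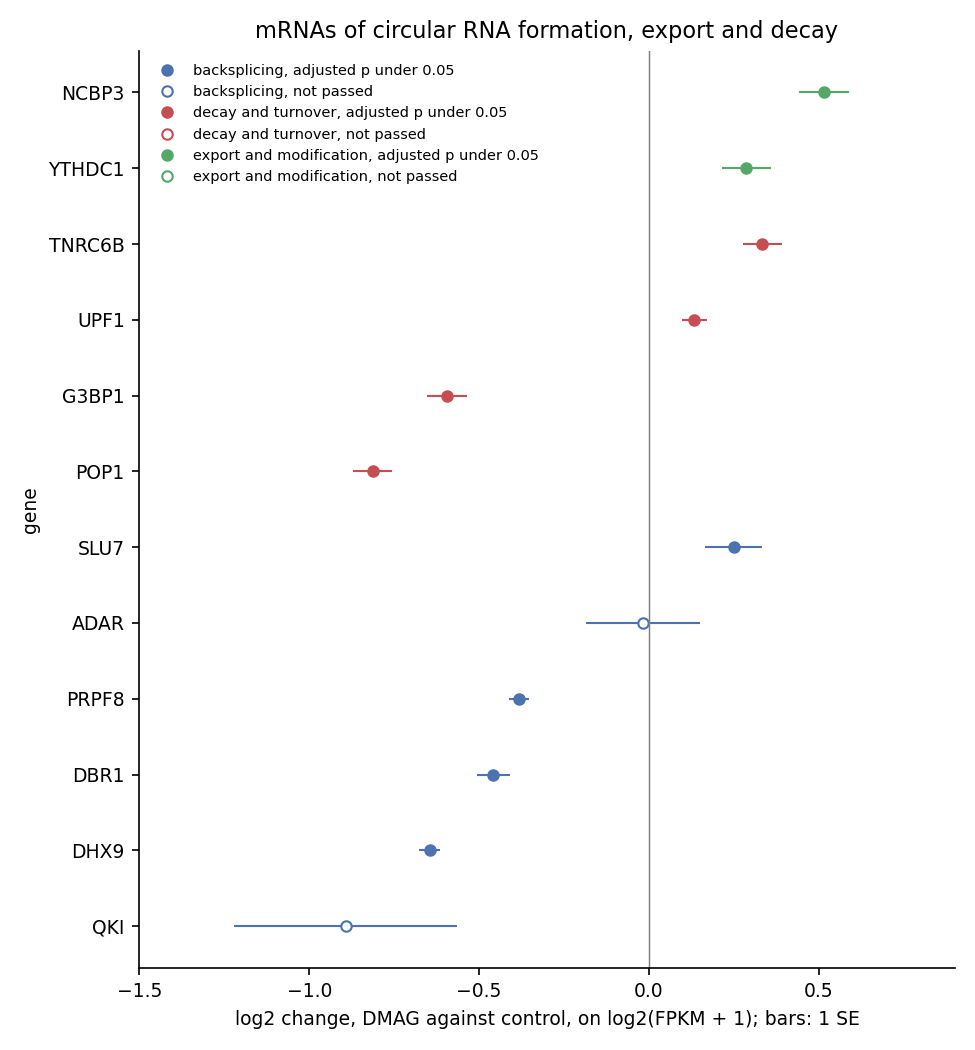
Log2 change with DMAG on log2(FPKM + 1) (x axis) for the 12 genes of circular RNA formation, export and decay that are named in the text (y axis), with bars of 1 SE and filled dots for an adjusted p under 0.05 (limma). POP1 and DHX9 have the lowest values among the filled dots, and QKI, left of both, has a wide bar and is open.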

How the data were processed

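RNA-Seq of 3 control and 3 DMAG libraries was used here. Per the submitters' processing notes, HISAT2 2.0.4, Bowtie, StringTie 1.3.3 and the build GRCh38 were used, with no roles given. For the caller of circular RNAs and its read minimum, the entry is: not given in the sources used here. Deposited by the authors were read counts and TPM per circular RNA, and FPKM per mRNA transcript. The TPM columns equalled CPM, the count per 1000000 of its column, within 4.9e-11, so the counts were tested. 

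Rows with a sum of 30 or more were tested with edgeR 4.0.16 (TMM, quasi-likelihood, R 4.3.3), with library sizes from all rows. The standard error of a circle's log2 change was its absolute value divided by the square root of the test's F statistic. Intervals for log2 changes came from this standard error and the fit's degrees of freedom, so both are approximate. FPKM was added up over the transcripts of each gene, and genes averaging 0.5 FPKM or more entered limma 3.58.1 on log2(FPKM + 1), which understates changes of low genes. Fold changes of mRNA are ratios of mean FPKM. P-values were adjusted by Benjamini-Hochberg over all rows or genes tested. DESeq2 1.42.0 was an alternative. Counting intervals cover counting error only, the floor takes the control counts as exact, and the depth behind FPKM is unknown. Both fits were run on simulated data with planted changes. The simulated circles had a common dispersion and no read minimum, so these runs do not bear on calls that rest on listed zeros. Libraries of the same group differed by more than counting noise.

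Circles named were the 10 most abundant, those called, the 2 rises and 2 falls of smallest p, and 19 known by catalogue name. Genes named were up to 5 rises and 5 falls of smallest p and a few set genes, QKI, ADAR, DHX9 and DBR1 among them; some items are not reported here. The members and lists were chosen with earlier results of these data known. Alternatives were other filters, scalings, pseudocounts and tests, a block for the replicate number, and fits without 1 library.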

Additional observations from a re-analysis of the deposited data

How the results depend on the processing

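The count of 2 catalogued circles called was the same with filterByExpr at a minimum count of 5, with column totals only, with DESeq2 and with identical rows counted once, and 3 with each listed 0 set to 1 (the last 2 chosen after seeing the data). Without a filter on low counts, and with the replicate number as a block, it was 0 (60 and 26 catalogued circles at an unadjusted p under 0.05 by edgeR, where DESeq2 with the filter called 2). Leaving out 1 library gave 0 (control replicate 3) to 2 (DMAG replicate 3), and 1 for each of the other 4. Whether the replicate numbers pair the libraries is not known. Deviations from the group means of same-numbered libraries correlated at 0.06, -0.05 and -0.03 across circles. At counts this low, such values cannot exclude pairing. The block left 14 of the 18 machinery genes called. With 1 library left out, 12 to 17 machinery genes were called, and 16 to 18 under the other pseudocounts, filters and scalings. The UPF1 call was lost with the block (limma adjusted p = 0.060).

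Signs turned for values near 0. The difference in circles detected was 1.67, -3.31 at equal depth, and -8.67 to 10.8 without 1 library. The share of the top 10 differed by -0.53 percentage points (-0.89 to -0.02 without 1 library), that of the 50 most abundant by 0.17. The share in catalogued circles differed by -1.20 to -0.92 percentage points without 1 library. Against other circles, the difference in rows detected was 13.6 to 15.5 points and in mean count 0.93 to 1.02 without 1 library, where 5 libraries allow no p under 0.0625 (exact permutation).

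The log2 change of hsa_circ_0001017 turned to -0.0021 with column totals and -0.016 with identical rows counted once (-0.10 to 0.12 without 1 library). That of hsa_circ_0000711 turned to -0.0035 without a filter, -0.022 with column totals, -0.041 with identical rows counted once and -0.0074 with zeros set to 1 (-0.21 to 0.13 without 1 library). For hsa_circ_0001944 DESeq2 gave 0.018 (-0.14 to 0.10 without 1 library). For ADAR, libraries scaled to the same median gave 0.0016 (-0.16 to 0.12 without 1 library). Ranges without 1 library also crossed 0 for hsa_circ_0001451 (-0.051 to 0.17), hsa_circ_0001481 (-0.0043 to 0.38), hsa_circ_0001776 (-0.10 to 0.21), hsa_circ_0001726 (-7.36 to 0.30) and hsa_circ_0000437 (-0.27 to 0.57). For hsa_circ_0001726 the value of -7.36 was that without DMAG replicate 1, which held all 52 of its DMAG counts. The cause of the sign changes was not tested.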
